A study of Mus musculus with 10 samples.

Results

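The transcripts of 10 genes of the Wnt and planar cell polarity pathways were followed in the prefrontal cortex (PFC) of WT mice and of mice without functional *Zbtb16* (KO). The 10 genes were taken by name from a table of read counts for 22000 genes, and were picked with earlier results of the same comparison in view: *Apc*, *Axin2*, *Gsk3b* and *Ctnnb1* of the beta-catenin branch, the receptor *Fzd3*, and *Celsr2*, *Celsr3*, *Vangl2*, *Prickle1* and *Prickle2* of the polarity branch. RNA-seq was made from 5 WT and 5 KO mice, 1 library per mouse, each labelled male and 7 weeks old. The KO mice were homozygous for lu, a spontaneous nonsense mutation of *Zbtb16* carried by the strain B6.C3-Zbtb16 lu/J, so the gene is altered in the germline and in every tissue, at every age. The study asked what the loss of *Zbtb16*, a zinc finger transcription factor, changes in the adult cortex, and the RNA comparison addresses this at the level of transcripts. Since the genotype values of the 10 genes took part in choosing them, those values are given as a description, without p-values. Whether a gene passed the threshold of the fit across all genes is stated for them as part of that description and is no independent evidence.

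Wnt ligands bind Frizzled receptors. In the beta-catenin branch, a cytoplasmic complex built on Axin and APC lets the kinases CK1 and GSK3 mark beta-catenin for degradation, and Wnt binding stops this, so that beta-catenin accumulates and acts with TCF/LEF factors on target genes such as *Axin2*. In the polarity branch, the cadherins of the Celsr family, Frizzled, Vangl and Prickle proteins sort to opposite sides of neighbouring cells, and in the brain the same proteins are known for guiding axon tracts, neuronal migration and dendrite growth. APC also binds the plus ends of microtubules and is abundant in neurons, and an antibody raised against it is a common label of mature oligodendrocytes.

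Promoter sequence was analysed for 8 of the 10 genes, all but *Apc* and *Fzd3*, in 13 windows of 300 bases. Each window ran from 250 bases before to 50 bases after an annotated start (RefSeq, GRCm38.p6). The windows were searched on both strands for the TCF/LEF heptamer, which here means CTTTGAA or CTTTGTA and, ending in the other base, CTTTGAT or CTTTGTT. A match was found in 1 of the 13 windows, beside 16.9% of all 32817 windows and 11.5% of the 13780 windows of genes tested here. In so few windows the count cannot be told apart from these shares. The window with a match was the second of 4 windows of *Prickle2*. Its stretch is shown because it carries both matches, in capitals, which begin at positions -164 and -140 from the start and do not overlap. It lies at chr6:92567489-92567541 on the minus strand, within the *Prickle2* gene, upstream of an internal start, and is written 5′ to 3′.
*Prickle2*, second window, TCF/LEF heptamers in capitals: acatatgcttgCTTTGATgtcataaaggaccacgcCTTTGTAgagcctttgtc

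The 4 *Prickle2* windows also differed in their CpG content. The 60 bases before the first start (chr6:92706185-92706244, minus strand), beyond the annotated 5′ end of the gene, and the 60 bases before the second start (chr6:92567367-92567426, minus strand) are shown to let this be seen, with CpG in capitals.
*Prickle2*, before the first start: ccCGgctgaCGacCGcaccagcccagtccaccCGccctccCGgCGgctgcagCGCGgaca
*Prickle2*, before the second start: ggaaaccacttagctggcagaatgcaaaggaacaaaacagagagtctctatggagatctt
The first stretch holds 8 CpG and the second 0. Over the whole window, *Prickle2* had 25 CpG at its first start and 4, 5 and 7 at the other 3, beside a median of 20 over the windows of tested genes. *Axin2*, a gene known as a beta-catenin target, had 31 CpG and no heptamer in its window, and the 2 windows of *Ctnnb1* had 46 and 51. Counts per gene do not separate these starts, so nothing measured here is assigned to one of them.

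The libraries held 30220122 to 51231439 counts on genes. A gene with 3 counts, the floor used here, would have had a CPM (counts scaled to a common library size by TMM normalization) of 0.058 to 0.0997, well under every value given for the 10 genes. In the fit across the 14344 genes that passed the filter on low counts, all 10 genes were tested, and 121 genes (0.844%) differed between the genotypes in edgeR's quasi-likelihood test (adjusted by Benjamini-Hochberg, threshold 0.05). *Zbtb16* itself was 47.4 ± 4.96 CPM (SD, n = 5) in the KO and 79.0 ± 7.23 CPM (n = 5) in the WT, and its log2 fold change was -0.67 (SE 0.058, adjusted p = 2.8e-05 by edgeR). The 5 KO mice ranged from 42.1 to 52.8 CPM and the 5 WT mice from 70.7 to 88.3 CPM, so the transcript was lower but still present, and the lower count checks the labels. Markers of excitatory neurons, interneurons, oligodendrocytes, astrocytes and the other cell types examined were at 0 in no library.

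Among the libraries, 2 stood apart from the rest or from their labels. KO mouse 3 had 1 count over 4 Y-linked genes, against 4376 to 8182 in the other 9 mice, which goes against its label as male. KO mouse 5 had a mean distance of 32.4 to the other libraries, against 25.3 to 28.8 for the other 9 (Euclidean, on log2 values). The RNA integrity number (RIN) was 8.1 to 8.3 in 4 mice (KO mice 3 and 5, WT mice 3 and 4) and 9.5 to 9.8 in the other 6. Results that lean on KO mouse 3 or 5 are given with and without it.

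Across the 10 genes, *Apc* was the single one with a genotype difference past the threshold, and the single one whose KO and WT mice did not overlap. That is 1 of 10 genes called, where 0.844% of all tested genes were called, and 1 of 10 without overlap, where 1.58% of all tested genes were. These shares describe genes chosen from this comparison and support nothing further. By the fitted log2 fold change, 6 of the 10 genes were higher in the KO, as were 48.1% of all tested genes, and 4 were lower, and their median was 0.03, beside -0.0044 over all tested genes. The sizes were small, with a median of 0.097 without regard to sign, beside 0.063 over all tested genes.

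**Figure D1:**
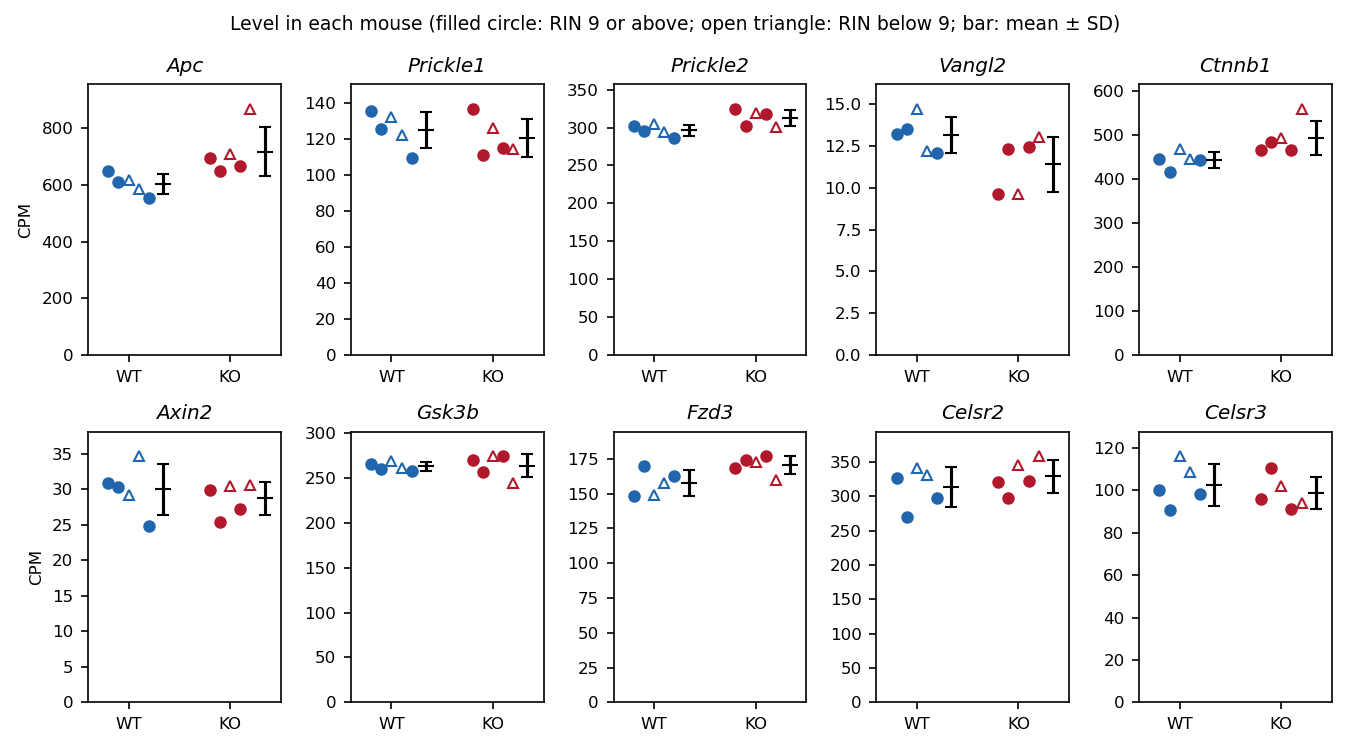
CPM of each of the 10 genes in every mouse, with WT mice in blue and KO mice in red, filled circles for a RIN of 9 or above, open triangles for a RIN below 9, and bars for the mean ± SD of 5 mice. Every axis starts at 0. The KO mice lie above all WT mice for *Apc*, where KO mouse 5 is at 868 CPM, and the genotypes overlap for the other 9 genes.

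*Apc*, the large scaffold of the beta-catenin destruction complex, had the highest count per mouse of the 10 genes. The gene (ENSMUSG00000005871.15) lies on chromosome 18 at 34220924 to 34322552 of GRCm38, on the plus strand, with 16116 exon bases. Its level was 694, 651, 711, 667 and 868 CPM in KO mice 1 to 5 and 648, 610.1, 616, 587 and 553 CPM in WT mice 1 to 5. Each KO mouse lay above each WT mouse, by a narrow margin between the lowest KO and the highest WT mouse. The means were 718 ± 86.9 CPM in the KO and 603 ± 35.4 CPM in the WT, and the fitted log2 fold change was 0.21 (SE 0.040), or 15.9% higher.

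KO mouse 5 was the highest, and without it the KO mean for *Apc* was 681 ± 26.8 CPM (n = 4) with a log2 fold change of 0.20, still past the threshold. Without KO mouse 3 the KO mean was 720.1 CPM, the log2 fold change was 0.21, and *Apc* no longer passed. Within the mice of RIN 9 or above, the 3 KO mice were at 651 to 694 CPM and the 3 WT mice at 553 to 648 CPM. Within those of lower RIN, the 2 KO mice were at 711 and 868 CPM and the 2 WT mice at 587 and 616 CPM. Since each KO mouse lay above each WT mouse, the order of the genotypes is the same in any split of the mice and says nothing on RIN. *Apc* did not pass in the fit of the high RIN mice alone (log2 fold change 0.15).

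The direction for *Apc* was the same under 23 other settings, with log2 fold changes from 0.15 to 0.26, while the call was not. *Apc* was picked with this contrast known, and each KO mouse lay above each WT mouse, so the unchanged direction adds no evidence. It was past the threshold in 10 of the 23, among them 5 of the 10 fits that left out 1 mouse. Leaving out KO mouse 1, KO mouse 3, WT mouse 3, WT mouse 4 or WT mouse 5 ended the call. *Apc* was also not called with 1 surrogate variable or none (0.209% of all tested genes were called with none), with RIN, a striatal marker score or the replicate number in their place, or with limma. Surrogate variables are patterns of variation between libraries that are estimated from all genes at once.

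**Figure D2:**
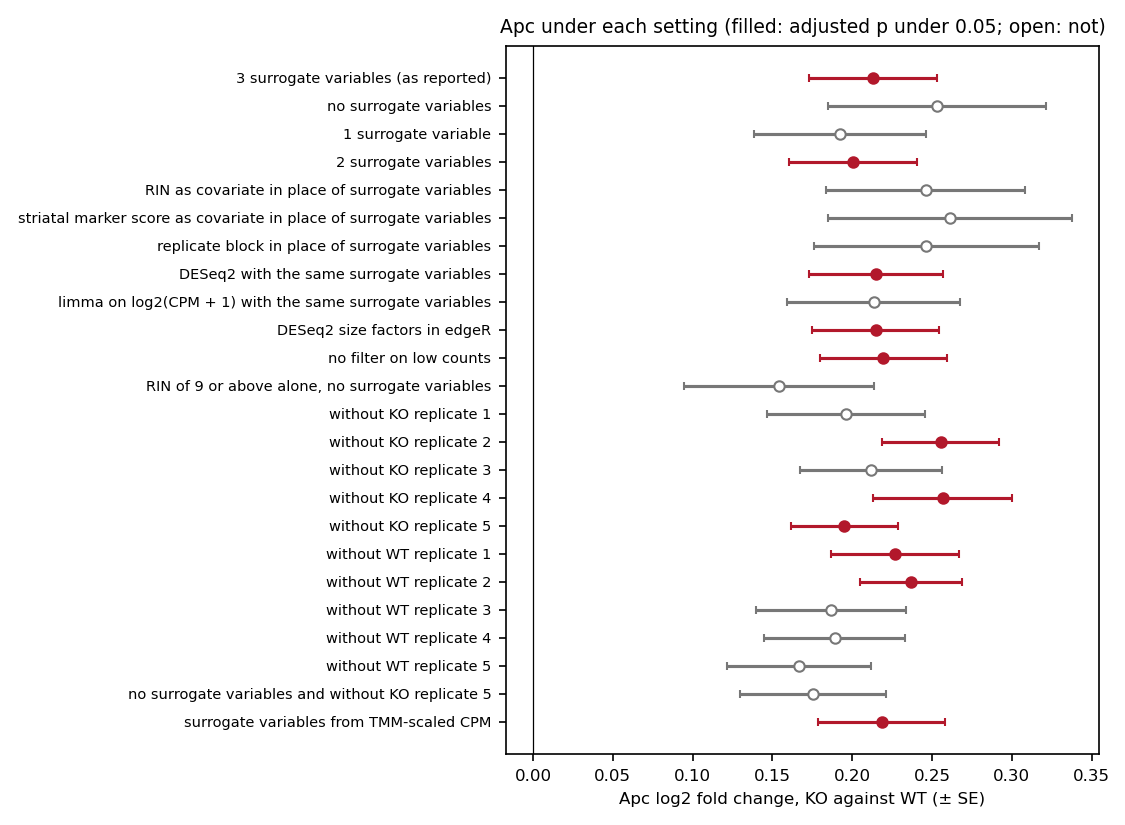
Log2 fold change of *Apc*, KO against WT, with its SE, under the reported fit and 23 other settings, filled where the adjusted p is under 0.05. Every point is above 0, between 0.15 and 0.26, and 10 of the 23 settings are filled.

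*Axin2*, the second scaffold of the complex and a feedback inhibitor of the pathway, was at 29.9, 25.4, 30.5, 27.2 and 30.6 CPM in the KO mice and 30.9, 30.3, 29.2, 34.6 and 24.8 CPM in the WT mice. The genotypes overlapped throughout, with means of 28.7 ± 2.30 and 29.96 ± 3.54 CPM (n = 5 each) and a log2 fold change of -0.05 (SE 0.070). Of its 5506 exon bases (ENSMUSG00000000142.15, chromosome 11, 108920349 to 108950783, plus strand), 209 are shared with an antisense gene, and whether the counting used strand is not stated.

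*Gsk3b*, the kinase that phosphorylates beta-catenin in the complex, was at 270.2, 256, 274, 274 and 244 CPM in the KO mice and 265, 260.2, 269, 261 and 257 CPM in the WT mice. The WT mice were close together and the KO mice lay on both sides of them, 3 above and 2 below. The means of *Gsk3b* were 264 ± 13.1 and 263 ± 4.65 CPM and its log2 fold change was 0.03 (SE 0.033). The gene (ENSMUSG00000022812.14) lies on chromosome 16 at 38089001 to 38246084, plus strand.

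*Ctnnb1*, which encodes beta-catenin, was at 467, 485, 494, 467 and 559.9 CPM in the KO mice and 446, 416, 468, 447 and 445 CPM in the WT mice. Of the KO mice, 3 lay above the highest WT mouse and the other 2 just under it. The *Ctnnb1* means were 495 ± 38.4 and 444 ± 18.4 CPM and the log2 fold change was 0.09 (SE 0.029), or 0.07 without KO mouse 5. The gene (ENSMUSG00000006932.17, chromosome 9, 120929216 to 120960507, plus strand) shares 759 of its 5192 exon bases with *Ulk4* on the opposite strand. If the counting ignored strand, reads of these bases could not be told apart. *Ulk4* had a log2 fold change of -0.24 and was not called.

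The receptor *Fzd3*, known for its part in the growth of long axon tracts, was at 169, 174, 173, 177 and 159.9 CPM in the KO mice and 148, 170.1, 149, 157 and 162 CPM in the WT mice. KO mice 2, 3 and 4 lay above the highest WT mouse, WT mouse 2, and KO mouse 5 lay among the WT mice. The means of *Fzd3* were 170.4 ± 6.55 and 157 ± 9.20 CPM, and its log2 fold change of 0.14 (SE 0.036) was the second largest on the higher side. *Fzd3* passed the threshold with DESeq2, which called 1.60% of all tested genes and 2 of the 10, and with no other setting. It lies on chromosome 14 at 65192449 to 65262463, minus strand (ENSMUSG00000007989.7).

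*Celsr2*, one of the seven-pass cadherins at the core of the polarity branch, was at 321, 297, 346, 323 and 358 CPM in the KO mice and 327, 269, 341, 330.5 and 298 CPM in the WT mice. The genotypes overlapped, with means of 329 ± 23.7 and 313 ± 29.3 CPM and a log2 fold change of 0.03 (SE 0.039). Without KO mouse 5 the log2 fold change of *Celsr2* was -0.0076, and it was also below 0 without KO mouse 4 (-0.014) or WT mouse 5 (-0.036). The gene (ENSMUSG00000068740.13) lies on chromosome 3 at 108390851 to 108415552, minus strand.

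*Celsr3*, its relative, known for the guidance of axon tracts, was at 96.0, 110.3, 102, 91.0 and 94.1 CPM in the KO mice and 99.97, 90.5, 116, 109 and 98.2 CPM in the WT mice. All KO values lay inside the WT range. The means of *Celsr3* were 98.7 ± 7.66 and 103 ± 9.87 CPM, and the fitted log2 fold change was -0.11 (SE 0.038). That size came with the 3 surrogate variables of the reported fit. The log2 fold change was -0.06 (SE 0.067) without surrogate variables, -0.05 with 1 and -0.04 with 2. The gene lies on chromosome 9 at 108826320 to 108852969, plus strand (ENSMUSG00000023473.13).

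*Vangl2*, a membrane protein that recruits Prickle, had the lowest level of the 10 genes. It was at 9.60, 12.3, 9.65, 12.4 and 13.0 CPM in the KO mice and 13.2, 13.5, 14.7, 12.2 and 12.1 CPM in the WT mice. KO mice 1 and 3 lay below every WT mouse and the other 3 lay among them. Its means were 11.4 ± 1.64 and 13.1 ± 1.06 CPM. The log2 fold change of -0.27 (SE 0.10) was the largest in size of the 10 and had the largest SE, and *Vangl2* passed in neither the reported fit nor the 23 others. Without KO mouse 3 it was -0.22. The gene (ENSMUSG00000026556.15) lies on chromosome 1 at 172000960 to 172028444, minus strand.

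*Prickle1* and *Prickle2* encode cytoplasmic LIM domain proteins that bind Vangl. *Prickle1* was at 136.5, 111, 126, 115 and 115 CPM in the KO mice and 135.6, 126, 132, 122 and 109 CPM in the WT mice. KO mouse 1 lay just above the highest WT mouse, and the other KO mice lay among the WT mice. The *Prickle1* means were 121 ± 10.5 and 125 ± 10.2 CPM. The log2 fold change was -0.0045 (SE 0.037) and changed sign in 9 of the 23 other settings. *Prickle2* was at 324, 302, 319, 318 and 300.2 CPM in the KO mice and 302, 295, 304, 294 and 286 CPM in the WT mice. KO mice 1, 3 and 4 lay above the highest WT mouse. The *Prickle2* means were 313 ± 10.9 and 296 ± 7.26 CPM and the log2 fold change was 0.10 (SE 0.030), positive in each of the 23 other settings and past the threshold in none. *Prickle1* (ENSMUSG00000036158.12) lies on chromosome 15 at 93499114 to 93595891 and *Prickle2* (ENSMUSG00000030020.13) on chromosome 6 at 92370908 to 92706155, both on the minus strand.

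**Figure D3:**
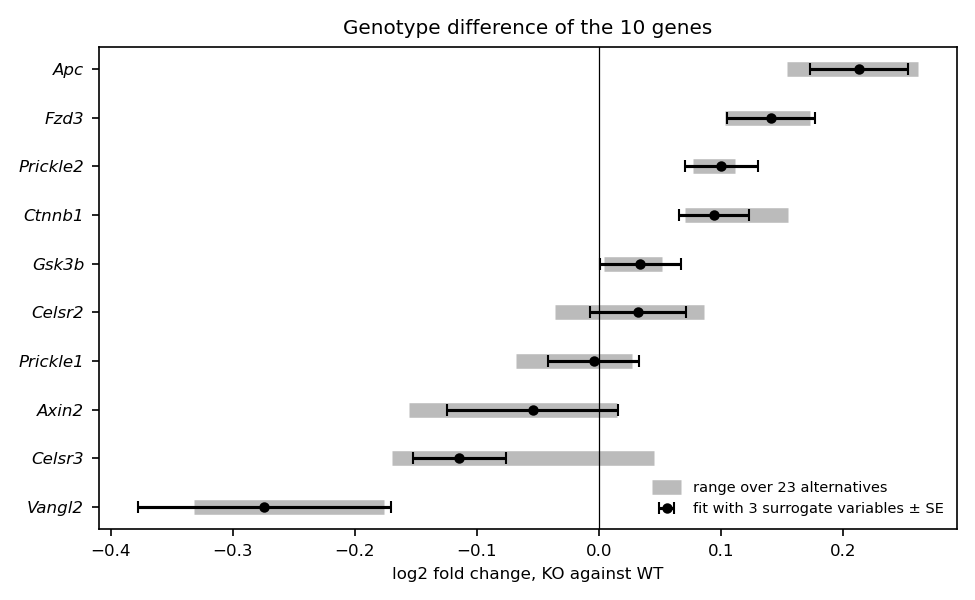
Log2 fold change of the 10 genes, KO against WT, with the SE of the reported fit as black bars and the range over 23 other settings as grey bands. The bands of *Prickle1*, *Axin2*, *Celsr2* and *Celsr3* cross 0, and those of *Apc* (0.15 to 0.26), *Fzd3*, *Prickle2*, *Ctnnb1*, *Gsk3b* and *Vangl2* stay on 1 side of it.

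Cell type markers were measured beside these values, and their part in them was not tested. Summed oligodendrocyte markers (8 genes) were 6121 to 8867 CPM in the KO mice and 6336 to 7956 CPM in the WT mice, with KO mouse 5, the mouse of highest *Apc*, at the lowest value. The same mouse had the highest sum of 6 excitatory neuron markers, 2410 CPM (KO mice 2043 to 2410, WT mice 1914 to 2245), and the lowest sum of 6 interneuron markers, 723 CPM (KO mice 723 to 816, WT mice 785 to 865). None of the markers of these types or of astrocytes, microglia, endothelium, striatal neurons or choroid plexus was called. Striatal markers (9 genes) summed to 336 to 499 CPM in the KO and 306 to 602 CPM in the WT mice, a spread found within both genotypes. In bulk tissue, fewer cells of a type and less RNA per cell cannot be told apart.

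Per length of exon, the 10 transcripts spanned a wide range in the WT cortex. *Ctnnb1* was highest at 85.6 ± 3.54 CPM per kb (n = 5), followed by *Apc* at 37.4 ± 2.20 and *Prickle2* at 34.3 ± 0.841 CPM per kb. *Prickle1* at 28.8 ± 2.35, *Celsr2* at 27.2 ± 2.54 and *Gsk3b* at 26.7 ± 0.473 CPM per kb came next and could not be ordered, since their WT ranges overlapped. Below them stood *Fzd3* at 12.3 ± 0.718, *Celsr3* at 8.51 ± 0.818, *Axin2* at 5.44 ± 0.643 and *Vangl2* at 1.88 ± 0.152 CPM per kb, each apart from its neighbours in all 5 mice. The WT ranges of *Apc* and *Prickle2* overlapped as well, although *Apc* was the higher of the pair within each of the 5 mice. The length used is the union of all annotated exons, which understates genes with long unused exons.

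**Figure D4:**
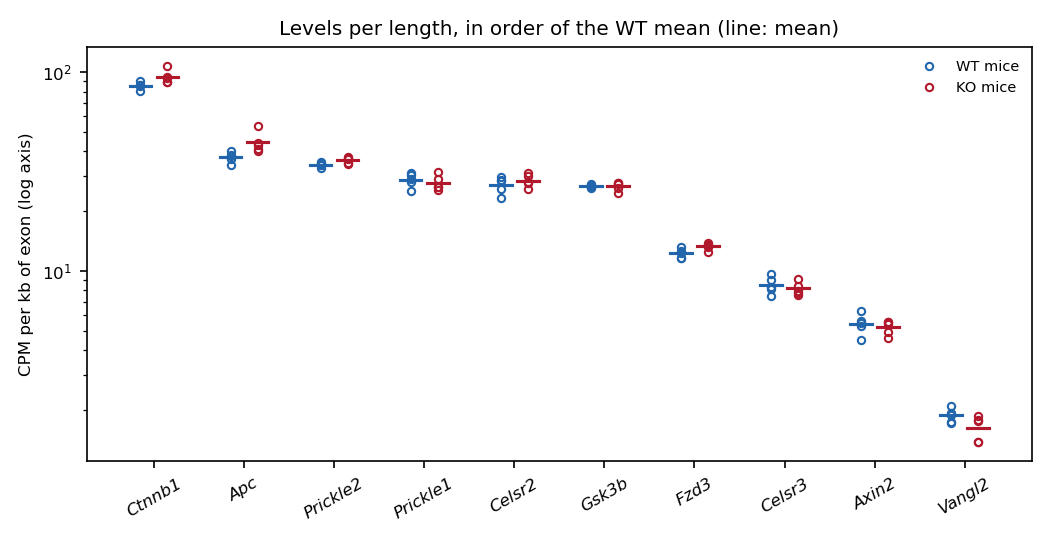
Level per kb of exon of the 10 genes in WT (blue) and KO (red) mice, on a log axis, 1 circle per mouse and a line at the mean, ordered by the WT mean. *Ctnnb1* stands at the top at 85.6 CPM per kb and *Vangl2* at the bottom at 1.88 CPM per kb in the WT, and the genotypes lie close together beside the distance between genes.

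Paralogs were expressed at unequal levels. *Prickle2* was 1.20 ± 0.0736 times *Prickle1* per kb in the WT and 1.31 ± 0.0790 times in the KO, and *Celsr2* was 3.198 ± 0.134 times *Celsr3* in the WT and 3.51 ± 0.432 times in the KO. The values of both ratios overlapped between the genotypes, from 1.12 to 1.32 in the WT and 1.20 to 1.40 in the KO for the Prickle pair. *Ctnnb1* was 2.29 ± 0.161 times *Apc* in the WT and 2.15 ± 0.115 times in the KO, with overlap. The 10 transcripts were long, with a median of 9231 exon bases against 4589 over the tested genes with a position (95.0% of them), and 9 of the 10 were above the median in length and 9 above it in level.

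RNA integrity did not enter the choice of the 10 genes and could be tested. In the fit of low RIN (4 mice) against high RIN (6 mice) with genotype as a term, 0 of the 10 genes passed, where 0.335% of all tested genes did, by the same edgeR test and adjustment. At an unadjusted p under 0.05 there were 2 of the 10, *Celsr2* and *Ctnnb1*, beside 10.8% of all tested genes, and DESeq2 called 0 of the 10. *Celsr2* was 330.5 to 358 CPM in the low RIN mice and 269 to 327 CPM in the high RIN mice. It was the 1 gene of the 10 without overlap between the RIN classes, as were 2.50% of all tested genes. Its means were 344 ± 11.4 (n = 4) and 306 ± 21.9 CPM (n = 6), with a log2 difference of 0.17 (SE 0.049, adjusted p = 0.17 by edgeR). That value stayed between 0.14 and 0.20 in 15 other settings, without KO mouse 3 (0.18) or 5 (0.16) among them.

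For *Ctnnb1* the RIN difference was 0.11 (SE 0.043, adjusted p = 0.317 by edgeR), for *Apc* 0.12 (SE 0.063, adjusted p = 0.547) and for *Axin2* 0.15 (SE 0.075, adjusted p = 0.485). The *Apc* difference leaned on KO mouse 5, and was 0.03 (SE 0.047, adjusted p = 0.881 by edgeR) without it. Without KO mouse 3 it was 0.14. In all, 7 of the 10 were higher and 3 lower in the low RIN mice, with a median of 0.07 beside -0.00061 over all tested genes. *Prickle2* (-0.00084) and *Gsk3b* (-0.011) had the smallest RIN differences.

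Pairs of genes were compared over the 10 mice after the mean of each genotype had been subtracted, which removes the contrast used to choose the genes. All 45 pairs were tested by exact two-sided permutation within the genotypes (14400 arrangements). These tests were not part of the initial plan. By Pearson's r, 6 pairs had an unadjusted p under 0.05 and 0 passed after Benjamini-Hochberg adjustment over the 45. By Spearman's rho, 5 had an unadjusted p under 0.05 and 2 passed. The share of pairs of all tested genes that would pass was not computed, so these counts have no background beside them. The pairs did not share 1 direction, with r above 0 in 27 of 45 and a median r of 0.06.

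*Prickle1* and *Prickle2* varied together, with rho = 0.89 (exact permutation p = 0.00208, adjusted 0.0469) and r = 0.86 (exact permutation p = 0.00347, adjusted 0.0781). Without KO mouse 1 and WT mouse 5, the 2 mice farthest out in *Prickle1*, r was 0.78, and in the 6 high RIN mice it was 0.88. Such values were not particular to this pair, since the 50 tested genes with the highest r to *Prickle2* had a median r of 0.90. *Ctnnb1* and *Celsr2* also passed by rank, with rho = 0.88 (exact permutation p = 0.00118, adjusted 0.0469), while r was 0.72 (exact permutation p = 0.0142, adjusted 0.128). For that pair r was 0.61 without KO mouse 5 and WT mouse 2 and 0.44 in the 6 high RIN mice. Both genes were higher in the low RIN mice, by log2 differences of 0.11 for *Ctnnb1* and 0.17 for *Celsr2*, neither past the threshold. The permutations kept the genotypes apart but not the RIN classes, so the p-values of this pair do not separate a shared RIN difference from a relation between the genes. The part of RIN in this rho was not tested.

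The largest r was that of *Prickle2* and *Gsk3b*, 0.88 (exact permutation p = 0.00167, adjusted 0.075), with rho = 0.82 (exact permutation p = 0.0122, adjusted 0.183). It was 0.86 without KO mouse 5 and WT mouse 5 and 0.89 in the high RIN mice. The most negative pair, *Fzd3* and *Celsr2*, had r = -0.83 and rho = -0.73 (exact permutation p = 0.00924 and 0.0347, adjusted 0.105 and 0.312). *Apc* and *Ctnnb1* had r = 0.73 and rho = 0.56 over the 10 mice (exact permutation p = 0.0836 and 0.0985, adjusted 0.468 and 0.443), but r = 0.28 without KO mouse 5, and the relation rested on that mouse.

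**Figure D5:**
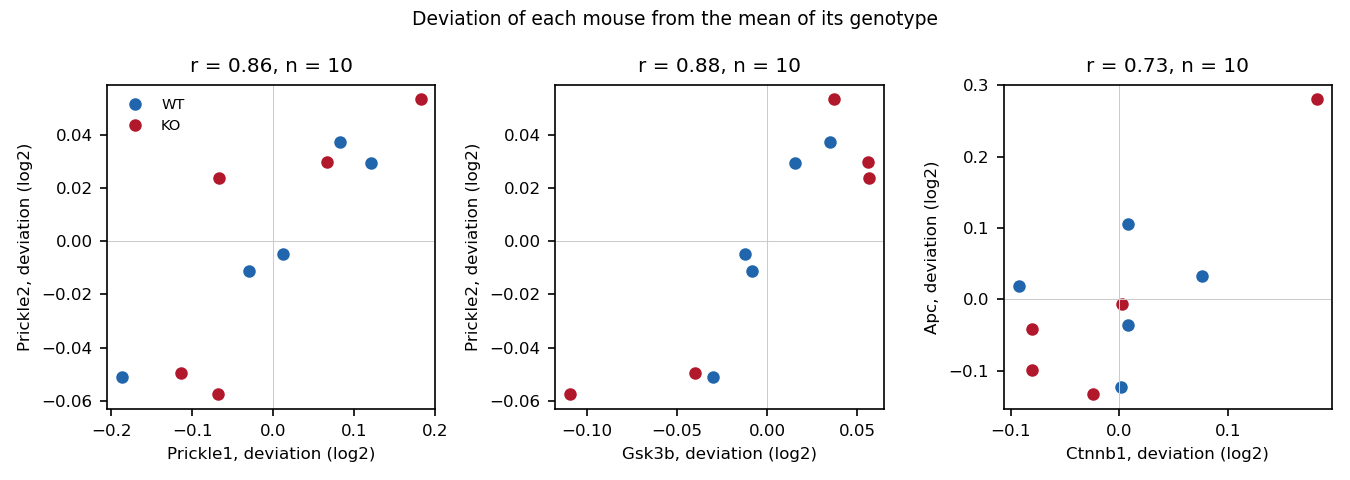
Deviation of each mouse from the mean of its genotype (log2 scale) for 3 pairs of genes, *Prickle1* with *Prickle2* (r = 0.86), *Gsk3b* with *Prickle2* (r = 0.88) and *Ctnnb1* with *Apc* (r = 0.73), with WT mice in blue and KO mice in red. In the first 2 panels the mice of both genotypes spread along 1 line, and in the third KO mouse 5 stands alone at the upper right.

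The genes most like *Apc* over the 10 mice, by r after the genotype means were subtracted, were *Dph6* (0.98), *Stx1a* (0.98), *Gpx1* (0.97), *Gpr45* (0.96) and a gene known by a clone name (0.96). Without KO mouse 5 these were 0.95, 0.93, 0.91, 0.90 and 0.90. Those most like *Prickle2* were *Oprd1* (0.94), *Mtmr12* (0.93), *Myo5a* (0.93), *Ptprj* (0.93) and *Dlgap1* (0.93). With the 3 surrogate variables also removed, the 5 values for *Prickle2* fell to 0.70, 0.73, 0.80, 0.77 and 0.65. Those for *Apc* were then 0.95, 0.89, 0.85, 0.83 and 0.97. *Myo5a* encodes a myosin motor of neurons, *Dlgap1* a scaffold of the postsynaptic density and *Stx1a* a syntaxin of the presynaptic membrane. The values are the highest of 14344, the genes share the libraries and their RNA quality, and none of the 10 genes is among those most alike.

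Around the 10 genes, 110 further Wnt and polarity genes were listed, with earlier results of these data known, and 96 of them could be tested. Their counts and p-values are therefore a description and no independent evidence. Of the 96, 3 rose and 1 fell in the KO, where 0.844% of all tested genes were called (0.600% higher and 0.244% lower). The median log2 fold change of the 96 was -0.01. The receptors *Fzd1* and *Fzd4* and the cyclin gene *Ccnd1* rose, and *Tnfrsf19*, a receptor of the TNF family, fell. The last 2 were listed as transcripts often used as beta-catenin targets. Over 23 other settings the call held in 8 for *Fzd1*, 10 for *Fzd4*, 11 for *Ccnd1* and 4 for *Tnfrsf19*. Of the 4, 0 passed without KO mouse 3, without WT mouse 3 or without WT mouse 4, while all 4 passed without KO mouse 5.

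Among 15 Frizzled receptors and co-receptors, all tested, 2 rose and 0 fell, where 0.600% of all tested genes rose and 0.244% fell. The median log2 fold change of this list was 0.06. *Fzd4*, a receptor of the brain vasculature that also binds Norrin, was at 23.8, 23.3, 19.9, 24.4 and 21.7 CPM in the KO mice and 19.1, 20.7, 15.6, 14.98 and 21.2 CPM in the WT mice. KO mouse 3 lay among the WT mice and the other 4 lay above them all. Its log2 fold change was 0.39 (SE 0.073, adjusted p = 0.0153 by edgeR). *Fzd1* was at 20.4, 17.3, 19.2, 16.4 and 15.4 CPM in the KO mice and 13.7, 15.6, 11.98, 14.7 and 14.8 CPM in the WT mice, with a log2 fold change of 0.40 (SE 0.086, adjusted p = 0.0370 by edgeR). For *Fzd1* the overlap came from KO mouse 5 and WT mouse 2 alone. The co-receptor *Lrp6*, the gene of highest level in this list, was at 67.5 ± 4.07 CPM in the KO and 64.8 ± 3.47 CPM in the WT and was not called.

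Of 8 transcripts often used as beta-catenin targets, 7 were tested, 1 rose and 1 fell, where 0.600% of all tested genes rose and 0.244% fell. *Ccnd1*, which encodes cyclin D1, was at 60.2, 60.7, 63.4, 66.1 and 44.5 CPM in the KO mice and 53.2, 45.7, 50.6, 48.5 and 47.7 CPM in the WT mice. In 4 KO mice it was above every WT mouse, and in KO mouse 5 below every WT mouse. The log2 fold change of *Ccnd1* was 0.32 (SE 0.066, adjusted p = 0.0294 by edgeR). *Tnfrsf19* was at 67.0 ± 6.14 CPM in the KO and 73.7 ± 5.35 CPM in the WT, with overlap, and its log2 fold change was -0.19 (SE 0.042, adjusted p = 0.0414 by edgeR). Without surrogate variables the adjusted p by edgeR was 0.443 for *Ccnd1*, 0.639 for *Tnfrsf19*, 0.296 for *Fzd1* and 0.429 for *Fzd4*.

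No other list held a call in the reported fit. The Dishevelled proteins and the rest of the destruction complex (12 tested) had 0 genes called by edgeR and 0 with an unadjusted p under 0.05, and a median log2 fold change of 0.0010. Their highest gene, *Csnk1a1*, which encodes the priming kinase CK1 alpha, was at 347 ± 30.7 and 360.1 ± 14.7 CPM in KO and WT. The nearest relatives of 3 members were in this list, named for that relation with their values known. *Apc2* was at 161 ± 6.08 and 151 ± 8.83 CPM (log2 fold change 0.07, SE 0.042), *Gsk3a* at 247 ± 7.01 and 243 ± 8.95 CPM (0.03, SE 0.034) and *Axin1* at 24.7 ± 1.33 and 24.6 ± 1.39 CPM (-0.02, SE 0.061), none of them called.

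Wnt ligands and their secretion (15 of 21 tested), secreted inhibitors and the R-spondin system (16 of 21), TCF/LEF factors and partners (13 of 13) and further polarity genes (18 of 20) had 0 calls each by edgeR, with 3, 1, 2 and 1 genes at an unadjusted p under 0.05, as were 10.6% of all tested genes. Their medians were -0.03, -0.10, -0.03 and -0.02. The genes of highest level were *Porcn* (51.2 ± 5.17 and 51.8 ± 3.18 CPM in KO and WT), an acyltransferase that acts on Wnt proteins, *Dkk3* (449 ± 57.9 and 491 ± 51.3 CPM), a member of the Dickkopf family, *Tle4* (59.4 ± 2.44 and 60.1 ± 5.63 CPM), a corepressor, and *Rock2* (327 ± 48.9 and 350.2 ± 16.1 CPM), a kinase that acts on the actin cytoskeleton. Without KO mouse 5, the log2 fold change of *Dkk3* moved from -0.10 to -0.17 and passed (adjusted p = 0.0345 by edgeR). With DESeq2, 6 of the 96 were called, where 1.60% of all tested genes were. The corepressor gene *Tle1*, named after its values were seen, was the 1 listed gene without overlap, at 41.6 ± 1.41 CPM in the KO and 37.4 ± 0.783 CPM in the WT (log2 fold change 0.14, adjusted p = 0.276 by edgeR), where 1.58% of all tested genes had none.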

How the data were processed

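The 10 genes and the pathway and marker lists were chosen with earlier results of these data known. Per the labels, mRNA was sequenced with a stranded kit as 101 bp read pairs. Reads were mapped by the authors to mm10 (STAR 2.7.1a), and the deposited values are HTSeq (0.9.1) counts of uniquely mapped reads on exons, without normalization. Whether that counting used strand is not given in the sources used here. Every pair of libraries differed by more than sampling noise. Without molecular identifiers, detection floors hold for counting error alone.

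Counts were tested with edgeR (4.0.16, R 4.3.3), by the quasi-likelihood test after filterByExpr (14344 genes) and TMM, with genotype and 3 surrogate variables from sva (3.50.0) on log2(CPM + 1) with a seed of 1, Benjamini-Hochberg adjustment over all tested genes and a threshold of 0.05. The study fitted linear models with surrogate variables on normalized values. RIN classes (below 9 or not) were compared with genotype as a term and no surrogate variables. DESeq2 (1.42.0), limma (3.58.1), other covariates, no filter, mice of RIN 9 or above alone and leaving out each mouse were alternatives. Leaving out KO mouse 5 with no surrogate variables, and surrogate variables from TMM-scaled values, were added after seeing the data. The tests of pairs of genes, by r and by rho, were not part of the initial plan. The fits were tested on simulated counts.

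The genes named are the 10, *Zbtb16*, every called gene and the gene of highest level of each pathway list, and the 5 genes most like *Apc* and *Prickle2*. Outside this rule, *Tle1*, *Apc2*, *Gsk3a* and *Axin1* were named with their values known, and *Ulk4* for its overlap with *Ctnnb1*. Of the striatal markers, *Drd1* was not analysed here. Replicates are separate mice, and whether KO and WT mice were littermates is stated by the study for behaviour alone. The replicate numbers are those of the labels, where a shared number marks different animals. The deviations of same-numbered mice from their group means had correlations of 0.173, -0.0018, 0.116, -0.106 and 0.1004, so the numbers were not taken as pairs. Positions and exon lengths come from the Gencode annotation of GRCm38, and promoter windows from RefSeq. No window of *Apc* or *Fzd3* was analysed. Tables and figures were made in Python 3.11.15 (with pandas 2.3.3, numpy 2.4.6, matplotlib 3.10.9 and scipy 1.17.1).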

Additional observations from a re-analysis of the deposited data

Results flagged for a closer look

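In 21 genes by 2 genotypes, 42 groups of 5 mice were examined for a single mouse far from the other 4. Such a mouse was found in 4 of the 42 groups, always KO mouse 5 or WT mouse 2. Chance alone would flag about 1 group in 20. Groups that share mice are not independent, so no excess is read from this count. *Apc* was at 868 CPM in KO mouse 5, above the other KO mice at 651 to 711 CPM. *Ccnd1* was at 44.5 CPM in the same mouse, below the other KO mice at 60.2 to 66.1 CPM. *Porcn* was at 46.3 CPM in WT mouse 2, below the other WT mice at 52.4 to 54.4 CPM. *Csnk1a1* was at 386 CPM in WT mouse 2, above the other WT mice at 352 to 357 CPM.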

How the results depend on the processing

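The count of genes called between the genotypes, 121, was 30 without surrogate variables, 34 with 1 and 57 with 2, 38 with RIN, 9 with the striatal marker score, 24 with the replicate block, 229 with DESeq2, 8 with limma, 1 in mice of RIN 9 or above alone, 26 without surrogate variables and KO mouse 5, and 39 to 248 when 1 mouse was left out. Of the 10 genes, 1 was called as reported, 2 with DESeq2 (*Apc* and *Fzd3*), 0 without or with 1 surrogate variable, with RIN, the striatal score, the replicate block, limma, high RIN alone, or without surrogate variables and KO mouse 5, and 0 to 1 when 1 mouse was left out. Of the pathway genes, 4 were called as reported, 6 with DESeq2, 1 with 2 surrogate variables, 1 without surrogate variables and KO mouse 5, 0 with no or 1 surrogate variable, RIN, the striatal score, the replicate block, limma or high RIN alone, and 0 to 6 when 1 mouse was left out. The cause of these shifts was not tested. Only 4 of 10 mice were closest to the mouse of the same number in the other genotype. Between the RIN classes, 48 genes were called as reported, 273 with DESeq2, 121 without a filter, 6 without a genotype term, and 1 to 73 when 1 mouse was left out, 1 without WT mouse 3, while 0 of the 10 genes passed in each. *Zbtb16* passed in all 23 alternatives, with log2 fold changes from -0.74 to -0.60. *Prickle1*, *Axin2*, *Celsr2* and *Celsr3* changed sign in 9, 2, 3 and 1 of 23, and *Celsr3* was 0.04 in the high RIN mice alone. All 10 genes lay above the floor of 3 counts in every mouse, so depth did not limit their detection.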
